A study of Rattus norvegicus with 6 samples.

Results

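The dopamine neurons of the substantia nigra owe their identity to a small set of transcription factors, and 6 of these genes were examined here: Nr4a2, Pitx3, Foxa2, Foxa1, Lmx1b and En1. They were chosen by name, and their probes were found by matching each probe's accession to the rat RefSeq transcripts of the gene. Of the 6 genes, 4 had a probe, each with 1, among 4013 genes that could be named on the array. No row matched a transcript of Lmx1b or En1, which are not analysed here. In the 4 measured genes there were 24 values, and the scanner marked 13 of them as above background, 8 of 12 in solvent rats and 5 of 12 in rotenone rats. Of all probes, 49.0% to 51.5% were above background on the solvent arrays and 44.2% to 49.1% on the rotenone arrays.

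The samples were substantia nigra pars compacta from 6 adult male Sprague Dawley rats aged 5 months, isolated by laser capture, with 1 one-colour array per rat. In 3 rats (rats 16, 13 and 9) a minipump under the skin released 0.5 mg/kg of rotenone each day for 28 days. Rotenone is a pesticide that blocks complex I of the mitochondrial respiratory chain. In the other 3 (rats 11, 7 and 1) the pump held the vehicle only, a mixture of dimethylsulfoxide and polyethylene glycol with the surfactant Pluronic F-127, which all 6 rats received. All 6 had ketamine and xylazine anaesthesia for the implantation. The question behind the comparison is what the accumulated low doses do to gene expression in this region.

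Nr4a2, also called Nurr1, is an orphan nuclear receptor that switches on the genes of dopamine synthesis, storage and reuptake and is still needed in the adult. Pitx3 is a homeodomain protein that acts with Nr4a2, and within the midbrain it is confined to dopamine neurons. Foxa1 and Foxa2 are forkhead factors that open chromatin early in the lineage and help to maintain the adult phenotype. The homeodomain factors Lmx1b and En1 act in the early patterning of the ventral midbrain and in the survival of the neurons.

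The sequences shown here are the stretches next to the start sites of measured genes, because the probe sequences are not used here. RefSeq windows on the GRCr8 build were present for 5 of the 6 factors (none for Foxa1). The 250 bases before the start were searched on both strands for the NR4A monomer site AAAGGTCA, the full cyclic AMP response element TGACGTCA, the forkhead site TGTTTAC and the PITX site TAATCC. These occurred in 1.24%, 1.59%, 3.22% and 6.34% of all 33465 such windows. None of the 4 was found in the windows of Nr4a2, Pitx3, Foxa2 and Lmx1b, while that of En1 held 1 TAATCC site. The windows of Pitx3 (chr1:254955326-254955575, minus strand) and Foxa2 (chr3:155927509-155927758, minus strand) lie outside the annotated gene, just before it, and are given in full for these measured factors. That of Nr4a2 (chr3:62104888-62105137, minus strand) lies inside the annotated gene and is not printed.
Pitx3: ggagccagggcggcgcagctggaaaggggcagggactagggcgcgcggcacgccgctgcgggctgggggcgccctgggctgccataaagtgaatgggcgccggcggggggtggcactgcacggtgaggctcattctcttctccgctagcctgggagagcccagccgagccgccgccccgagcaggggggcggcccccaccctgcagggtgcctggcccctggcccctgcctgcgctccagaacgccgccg
Foxa2: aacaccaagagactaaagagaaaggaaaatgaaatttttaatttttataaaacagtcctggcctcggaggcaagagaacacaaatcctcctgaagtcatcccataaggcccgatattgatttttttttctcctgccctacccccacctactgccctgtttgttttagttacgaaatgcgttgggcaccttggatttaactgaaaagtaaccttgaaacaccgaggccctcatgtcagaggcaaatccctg
Among 5 genes of the dopamine phenotype searched in the same way, 30 bases around each match are given for 3, with the match in capitals. Th (chr1:207508269-207508298, minus strand) and Slc18a2 (chr1:268399958-268399987, plus strand) hold the cyclic AMP element, and 1 of the 3 windows of Ddc (chr14:90682838-90682867, minus strand) holds the NR4A site on the reverse strand. These windows lie inside the annotated gene, as that of Nr4a2 does. No match was found for Slc6a3 and Ret.
Th: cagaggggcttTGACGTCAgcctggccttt
Slc18a2: agtgctatccgTGACGTCAgagccggactg
Ddc: ctggacttcctTGACCTTTataccatcaga

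Nr4a2 (probe GE1180166) had the largest difference in mean of the 4 factors and was the 1 factor above background on 5 of 6 arrays. Its net intensity, the spot mean minus the local background median, was 94.1, 123 and 144 in solvent rats 11, 7 and 1, and 4.86, 29.6 and 114 in rotenone rats 16, 13 and 9. The low values belonged to rotenone rats 16 and 13, whereas rotenone rat 9 lay within the solvent range, so the groups overlapped. The spot of rat 16 was marked near background, and 107 of the 256 negative control spots on that array were as bright or brighter. In rat 13 it was reached by 4 negative spots, in rat 9 by 1 and in the 3 solvent rats by none. The local background under this spot was similar on all 6 arrays, at 39 to 45.

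On the normalized log2 scale Nr4a2 was at 7.20, 7.39 and 7.54 in the solvent rats and at 5.94, 6.39 and 7.44 in rotenone rats 16, 13 and 9. The solvent mean was 7.38 ± 0.17 (SD, n = 3), and that of the rotenone rats was 6.59 ± 0.77 (SD, n = 3). Rotenone minus solvent gave -0.79 (95% interval -1.51 to -0.07). In limma its unadjusted p was 0.0343 and its p after Benjamini-Hochberg adjustment over 16708 probes was 0.895, so Nr4a2 did not pass the test. The exact permutation test over the 6 rats gave p = 0.3, two-sided, where 0.1 is the smallest value that 3 against 3 allows. Of all probes tested, 0% passed an adjusted p of 0.05 and 825, or 4.94%, had an unadjusted p below 0.05 (2.95% lower and 1.99% higher with rotenone). Nr4a2 was the 1 of 3 tested factors below that unadjusted level, and 3.18% of all probes had a p at or below its own. All 3 tested factors had a lower mean with rotenone, as did 48.4% of all probes, and 1 of the 3, Nr4a2, was lower by more than 0.5 on the log2 scale, as were 2.9% of all probes. Pitx3 passed the background filter only through its 3 solvent arrays, which favours a lower rotenone mean. Its direction is therefore a description and adds no support.

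The low values of Nr4a2 were set beside the other probes of the same arrays as a description, with the rats chosen after their values were seen. It deviated from its solvent mean by -1.44 in rat 16, and 0.491% of the 16708 probes did so by as much or more in that direction. In rat 13 the deviation was -0.99, reached by 0.335%. In rat 9 its deviation was 0.06. The 58 tested spots within 5 rows and columns of it on the array had median deviations of -0.05 in rat 16 and 0.01 in rat 13.

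**Figure D1:**
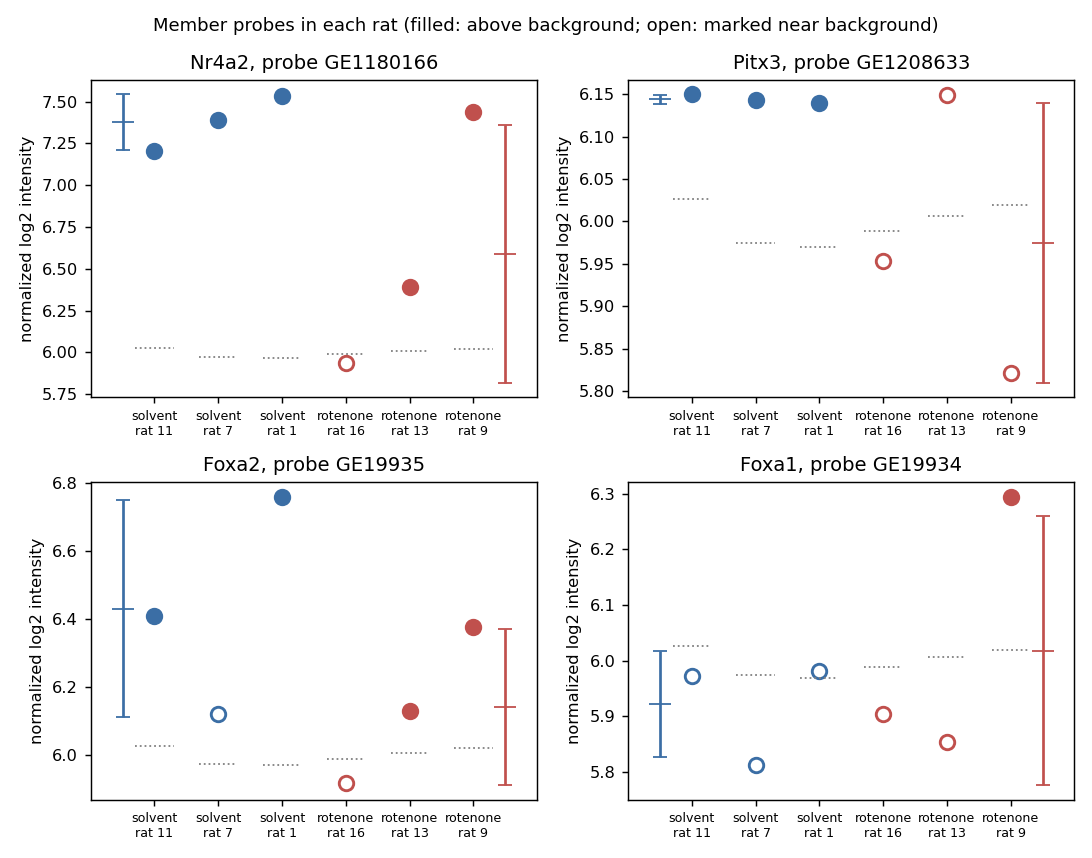
Normalized log2 intensity of the 4 probes in each rat (blue solvent, red rotenone), with the group mean ± SD (n = 3) at the sides. A dotted line marks the dimmest spot above background on each array. It is not a cutoff, as some points marked near background lie above it. Each panel has its own axis. Nr4a2 spans 5.94 to 7.54, while Pitx3, Foxa2 and Foxa1 stay below 6.77 and have open points, marked near background, in both or 1 of the groups.

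The array of rotenone rat 16 stood apart from the rest: its mean correlation with the others was 0.931, against 0.956 to 0.964. It also had the fewest probes above background (44.2%, against 48.6% to 51.5%), and 26.2% of the tested probes had their lowest value there. Without rat 16 the difference of Nr4a2 was -0.47 (unadjusted p 0.142 in limma), and with array weights, which gave rat 16 the weight 0.394, it was -0.46 (unadjusted p 0.152). Without rotenone rat 9 it was -1.22 (unadjusted p 0.000362). The unadjusted p of Nr4a2 stayed below 0.05 in 4 of 8 other ways of processing and in 2 of 6 fits without a rat, and was above it in the rest. Adjusted p values with 1 rat left out lay between 0.635 and 1.00 in limma. Lists of cell type markers were set beside these values. The labelled tissue was checked by Th, Slc6a3, Ddc and Slc18a2, 4 genes of dopamine synthesis, storage and reuptake, whose tested probes were above background on all 6 arrays. As a median of the 4 they deviated from their solvent means by 0.04 in rat 16, -0.26 in rat 13 and 0.08 in rat 9, and their summed linear level was 19130 to 26511 with solvent and 18817 to 25634 with rotenone. The 8 tested markers of neurons in general were all lower in mean in rotenone rats (median difference -0.19). None of them passed the test, and Gap43 and Syn2 had an unadjusted p below 0.05. Over the 8, the median deviations in rats 16, 13 and 9 were -0.66, -0.04 and -0.12, and the summed linear level was 6340 to 7865 with solvent and 4707 to 6288 with rotenone, lowest in rat 16. For 6 tested astrocyte markers the median deviations were -0.16, 0.37 and 0.18, and for 6 of oligodendrocytes -0.38, -0.02 and -0.35. The median difference was 0.13 for astrocytes and -0.26 for oligodendrocytes, of which 4 were lower and 2 higher. For 5 tested GABA neuron markers it was -0.03, and for 3 of microglia -0.06. Through their probes of highest mean, Mal of the oligodendrocyte list and Gad2 of the GABA list also had an unadjusted p below 0.05 in limma. Mobp of the oligodendrocyte list had tested probes that disagreed. It was counted as higher through its probe of highest mean, GE1302921 (0.25). Its other tested probes, GE19922 (unadjusted p 0.0298) and GE21457 (unadjusted p 0.0433), were lower with rotenone, each with an adjusted p of 0.895 in limma. Their means were 8.32 and 6.88 with solvent and 7.31 and 6.25 with rotenone. Of the 3 serotonin neuron genes, Tph2 and Slc6a4 did not pass the background filter, and the transcription factor gene Fev was above background on all 6 arrays, at 6.45 to 7.02 on the log2 scale with its highest value in rat 16. Whether the cell content of the captured tissue bears on Nr4a2 was not tested, and in tissue of this kind fewer cells of a type and less RNA per cell cannot be told apart.

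Foxa2 (probe GE19935) lay close to background. Its net intensity was 30.4, 15.2 and 59.4 in solvent rats 11, 7 and 1 and 4.07, 14.4 and 25.9 in rotenone rats 16, 13 and 9. The highest value was that of solvent rat 1 and the lowest that of rotenone rat 16, and the other 4 values of the 2 groups were interleaved. It was above background on 2 arrays of each group; solvent rat 7 and rotenone rat 16 were marked near background. The solvent mean was 6.43 ± 0.32 (SD, n = 3) on the log2 scale and the rotenone mean 6.14 ± 0.23 (n = 3), which is -0.29 between them (95% interval -0.75 to 0.17; adjusted p 0.895 in limma). It depended on single rats, at -0.12 without solvent rat 1, -0.19 without rotenone rat 16 and -0.44 without solvent rat 7. It was -0.15 with array weights and -0.13 with the spots marked irregular left out, as that of solvent rat 1 was. As for Nr4a2, rats 16 and 13 were the lowest of the rotenone group.

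Pitx3 (probe GE1208633) was nearly level among solvent rats, with net intensities of 15.3, 16.4 and 16.8 in rats 11, 7 and 1. In rotenone rats 16, 13 and 9 it was 5.52, 15.5 and 0.70. The scanner marked it above background in each of the 3 solvent rats and near background in each of the 3 rotenone rats. The value of rotenone rat 13 nevertheless lay within the solvent range, so in that rat the mark differed and the signal did not. The log2 means were 6.14 ± 0.01 (SD, n = 3) and 5.97 ± 0.17 (n = 3), and the difference was -0.17 (95% interval -0.53 to 0.19; adjusted p 0.904 in limma). No rotenone rat measured Pitx3 above background, so each rotenone value was counted as no lower than the dimmest spot above background on its array. On these floored means Pitx3 was 1.07-fold higher with solvent. That is not a bound, since spots brighter than this floor were also marked near background. In rat 13 Pitx3 itself was so marked at 6.15, above the floor of 6.01 on that array and the solvent mean of 6.14. The 95% interval of the difference spans both directions. Without rotenone rat 9 the difference was -0.09, and without rotenone rat 13 it was -0.26.

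Foxa1 (probe GE19934) was above background on 1 array, that of rotenone rat 9, and was not tested. Its net intensity was 7.14, 0.90 and 7.94 in solvent rats 11, 7 and 1 and 3.57, 2.07 and 21.5 in rotenone rats 16, 13 and 9. Between 42 and 215 of the 256 negative control spots were as bright or brighter in the 5 rats marked near background, and 1 was in rat 9. The log2 means were 5.92 ± 0.09 (SD, n = 3) in solvent rats and 6.02 ± 0.24 (n = 3) in rotenone rats. No fold is given, as 5 of the 6 values were near background, and without rat 9 the difference of the means was -0.04. Foxa1 was highest in rat 9, the rotenone rat in which Pitx3 was lowest and Nr4a2 and Foxa2 were highest.

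**Figure D2:**
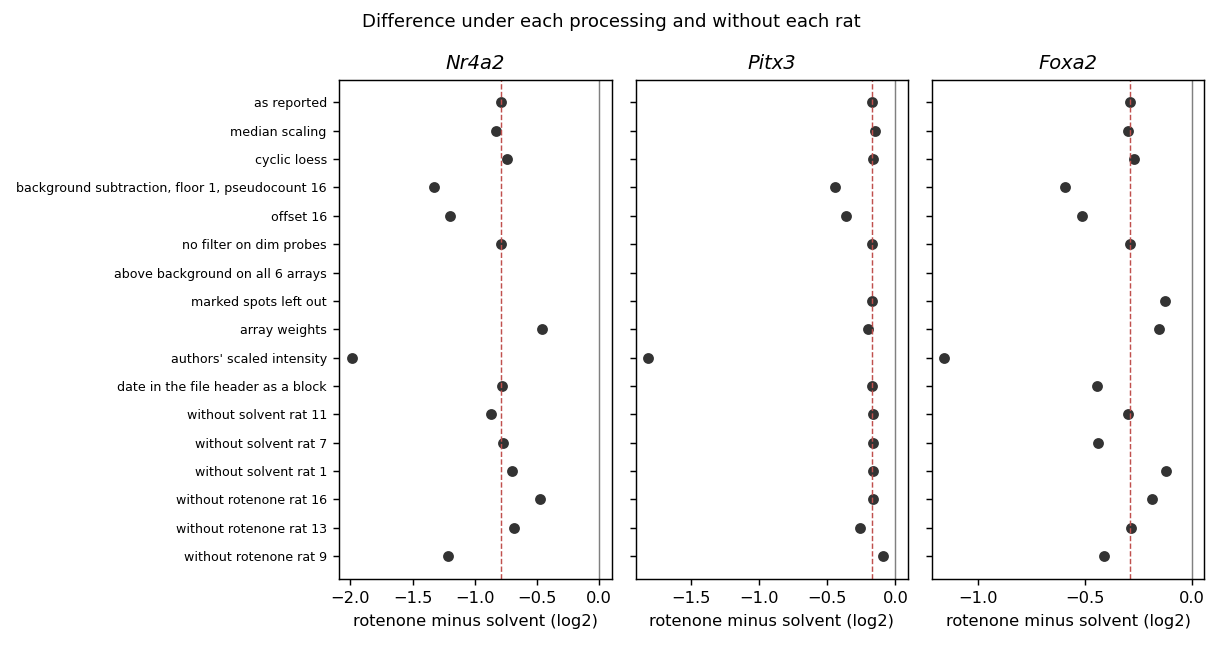
Difference between rotenone and solvent (log2, each panel with its own axis) for the 3 tested factors under each processing and without each rat; the dashed line marks the reported value and the grey line 0. The values lie below 0 in each setting that gave one, from -1.99 to -0.46 for Nr4a2, and none of the 3 factors has a value where only probes above background on all 6 arrays were kept.

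For these 3 factors the size of the difference depended on how the background was handled. With an offset of 16 in place of 50 after background correction, Nr4a2, Pitx3 and Foxa2 differed by -1.20, -0.36 and -0.51, and with plain subtraction by -1.33, -0.44 and -0.59. On the authors' scaled intensity the differences were -1.99, -1.81 and -1.16. These sizes are not measured folds, since Nr4a2 and Foxa2 were near background in rat 16 and Pitx3 in each rotenone rat. For Pitx3 the value rests most on rat 9, where 203 of the 256 negative control spots were as bright or brighter. The only fold given for it is the floored 1.07-fold, which is not a bound. The adjusted p in limma lay between 0.842 and 1.00 for the 3 factors over these and the other ways of processing. The scaled intensity of Nr4a2, which sets the median probe of an array near 1, was 6.42, 7.66 and 8.63 in the solvent rats and 0.415, 2.00 and 8.19 in rotenone rats 16, 13 and 9.

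The genes that Nr4a2 and its partners regulate were read from the same fit, from a list of 29 genes of the dopamine phenotype, of which 20 were on the array by name and 14 were tested. None passed the test (0% of all probes did), 8 had higher and 6 lower means with rotenone, and the median difference was 0.01, as over all probes tested (0.01). Without rotenone rat 16 the median was -0.12. Read through the probe of highest mean for each gene, the lowest p values were those of the synuclein gene Sncg (-0.67, unadjusted p 0.0169) and the vesicular monoamine transporter Slc18a2 (-0.54, unadjusted p 0.0667), each with an adjusted p of 0.895 in limma. Gfra1, a receptor for glial cell line-derived neurotrophic factor, had 2 tested probes that disagreed. Its probe of highest mean, GE1306066, differed by 0.00, and GE22011 by -0.86 (95% interval -1.43 to -0.29; unadjusted p 0.00709, adjusted p 0.895 in limma), with solvent values of 7.85 to 8.10 and rotenone values of 6.63 to 7.70. GE22011 was named after its values were seen.

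Slc18a2, which loads dopamine into vesicles, had its low values in the same rats as Nr4a2. It was at 9.39, 9.65 and 9.83 on the log2 scale in solvent rats 11, 7 and 1 and at 9.10, 8.51 and 9.63 in rotenone rats 16, 13 and 9. Both genes were lowest in rotenone rats 16 and 13, followed by solvent rat 11, and both were highest in solvent rat 1. The order within the low pair differed: Nr4a2 was lower in rat 16 and Slc18a2 in rat 13. The 95% interval of the Slc18a2 difference ran from -1.13 to 0.05.

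The other genes of dopamine handling did not share this order. Th, which makes the precursor of dopamine, was at 13.09, 12.56 and 12.91 in rotenone rats 16, 13 and 9, so rat 16 had its highest value of the 6. Its solvent values were 12.48, 12.86 and 12.88. Ddc, the next enzyme, was at 13.39, 12.63 and 13.12 in these rotenone rats and at 12.68, 13.47 and 12.80 in solvent rats 11, 7 and 1. The transporter Slc6a3, which takes dopamine back up, was at 12.45, 12.57 and 12.57 with rotenone and at 12.60, 12.77 and 12.82 with solvent. These 3 rotenone values lay just below the solvent values, as 1 of the 9.97% of probes whose groups did not overlap, with a difference of -0.20 (95% interval -0.54 to 0.15). The growth factor receptor Ret differed by 0.02 (interval -0.36 to 0.40) at its tested probe, GE1105553. Its other probe, GE15732, was above background in 2 solvent rats and no rotenone rat and was not tested. The means of that probe were 6.19 with solvent and 5.99 with rotenone.

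**Figure D3:**
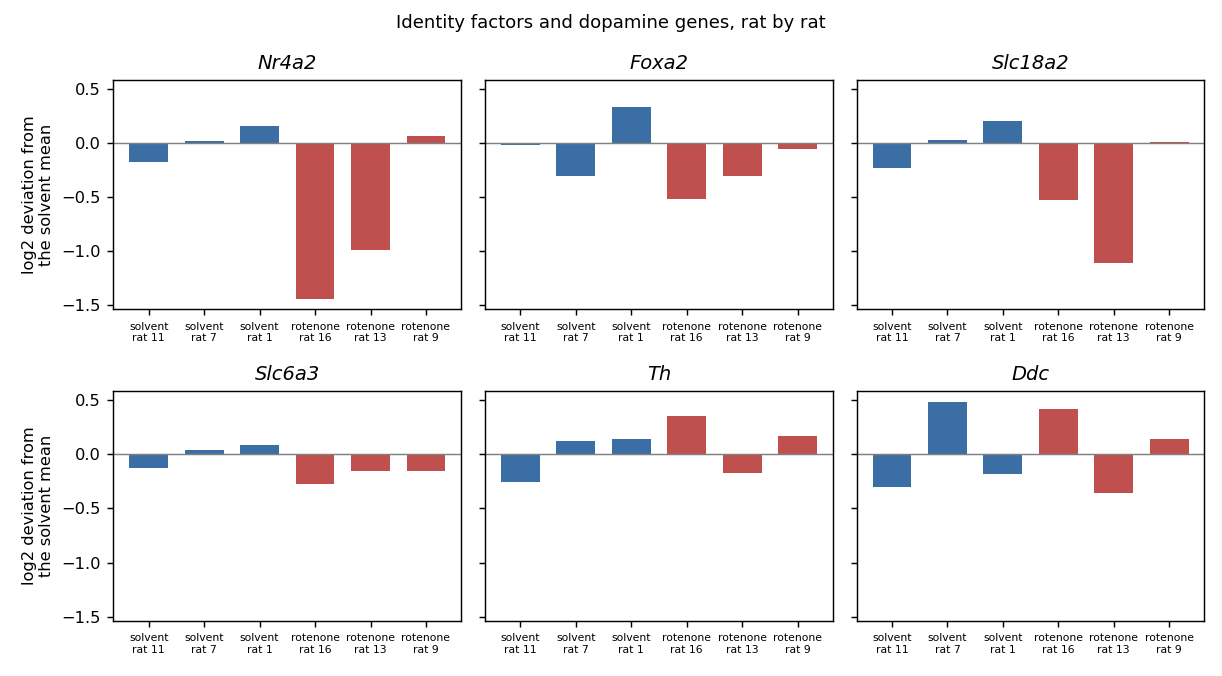
Deviation of each rat from the solvent mean (log2 normalized intensity, blue solvent, red rotenone) for 2 identity factors and 4 genes of dopamine handling. In rats 16 and 13 Nr4a2 lies at -1.44 and -0.99, Slc18a2 is also below the solvent rats, and Th and Ddc are above the solvent mean in rat 16 and below it in rat 13.

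Relatives of the factors and other regulators of the lineage came from a list of 40 genes, of which 12 were on the array by name and 8 were tested. None passed the test, 6 had higher and 2 lower means with rotenone, and the median difference was 0.12, against 0.01 over all probes tested. Without rotenone rat 16 the median was -0.01. Ebf1, a helix-loop-helix factor, differed by 0.44 (95% interval -0.10 to 0.97), with rotenone rat 16 the highest at 7.34. Msx1, a repressor in ventral midbrain progenitors, had 2 probes, at 0.17 and 0.05. Nr4a1, the sister receptor of Nr4a2, was at 6.52, 6.23 and 6.75 in solvent rats 11, 7 and 1 and at 6.73, 6.95 and 6.35 in rotenone rats 16, 13 and 9. It thus had its highest value in rat 13, where Nr4a2 was low, and it differed by 0.18 (interval -0.28 to 0.64). Nr4a3, the third member of the family, was above background on 1 of 6 arrays and was not tested. Foxa3, a forkhead factor known from the liver, was above background on each of the 6 arrays and differed by 0.15 (interval -0.27 to 0.58). Lmx1a, Otx2 and En2 had no named probe.

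Nr4a2 belongs to a family of early response genes, so these were read as well: 16 of 22 were on the array by name and 10 were tested. None passed the test, 7 had higher and 3 lower means with rotenone, and the median difference was 0.12. The phosphatase gene Dusp1 (0.41, unadjusted p 0.0286) and Egr1 (0.44, unadjusted p 0.103), a zinc finger factor, were higher in mean, and Arc, a synaptic gene, was lower (-0.22), each with an adjusted p of 0.895 in limma. Arc was above background in the 3 solvent rats and in no rotenone rat, so it passed the background filter through the solvent rats alone.

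**Figure D4:**
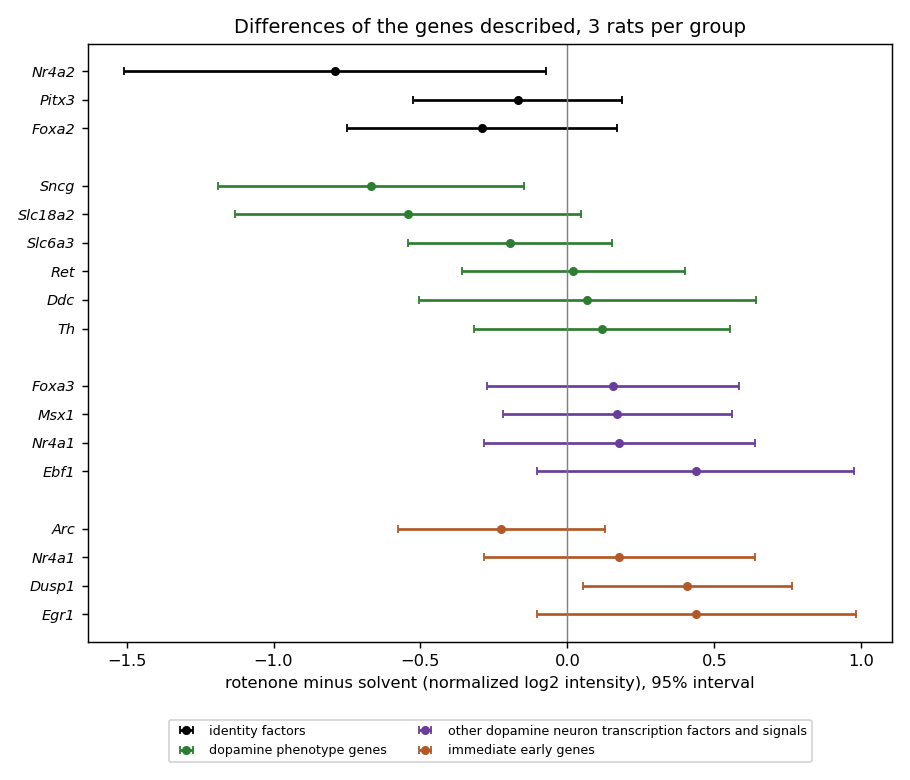
Difference between rotenone and solvent (normalized log2 intensity) with its 95% interval for the 3 tested factors and the tested genes of the 3 lists that are described in the text, 3 rats per group, 1 probe per gene. The interval of Nr4a2 runs from -1.51 to -0.07, and those of Pitx3 and Foxa2 include 0.

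The genes whose pattern over the 6 rats lay nearest to each factor were found among named genes above background on all 6 arrays, by the root mean square difference of log2 values after each gene's own mean was taken off. Nearest to Nr4a2 were Sfxn5 (0.16), Pdia3 (0.19) and Nell2 (0.22), out of 483 candidates. They are a mitochondrial sideroflexin, a disulfide isomerase of the endoplasmic reticulum and a secreted neural protein. Each was lowest in rotenone rat 16 and next lowest in rat 13, with differences of -0.75, -0.64 and -0.63 and an adjusted p of 0.895 in limma. Nearest to Foxa2 were Hspa13 (0.08), Tmlhe (0.09) and Atp2b1 (0.10) of 1435 candidates, and nearest to Pitx3 out of 1697 were Secisbp2 (0.05) and Eif3h (0.07), among others. With 6 arrays and many candidates some genes lie near any pattern, so these distances are a description.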

How the data were processed

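Amplified, biotin-labelled RNA of 6 rats was measured on 1 CodeLink array each, per the labels' protocols. For each spot the authors deposited, as linear intensity, the spot mean, the local background median, their difference and that difference scaled to the array's median. The authors' value table repeats that scaled intensity, with column medians of 0.994, 1.00, 0.996, 0.999, 0.998 and 0.996 for rats 11, 7, 1, 16, 13 and 9; its column of solvent rat 7 equals the scanner file in 0.882% of rows that could be tied to a probe, against 100% for the others, so it was not used. The scanner software was not given in the sources used here.

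Of 33849 probes, 4675 (13.8%) were named through RefSeq accessions (GRCr8). After normexp background correction (offset 50), control spots were dropped, and log2 intensity was brought to common quantiles (limma 3.58.1, R 4.3.3). The offset draws differences of dim probes towards 0. The 16708 probes above background (not marked near background or masked) on at least 3 arrays were tested with limma, two-sided, with Benjamini-Hochberg adjustment; the code was tested on simulated data. Spots that the scanner marked as irregular were kept, since 97.9% to 99.0% of probes with a net intensity over 100 carry that mark. Precision is limited by having 6 arrays.

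The factors, the lists and the rule for named genes (each probe of the factors, the 3 nearest genes by pattern, the 3 genes with the lowest p in each list, and set relatives and dopamine genes) were chosen with earlier results of these data known. Some genes that the rule names are not reported here. The alternatives were other normalizations, background corrections and filters, leaving out marked spots, array weights, the authors' scaled intensity, the header date as a block, and leaving out each rat. In a list a gene counts once, through its probe of highest mean.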

Additional observations from a re-analysis of the deposited data

How the results depend on the processing

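Nr4a2, Pitx3 and Foxa2 were lower in mean with rotenone and not called under each alternative that gave a value: 14, 15 and 15 of them. The background filter, which Pitx3 passed through solvent arrays alone, favours a lower rotenone mean, so the direction of Pitx3 is a description. With 1 rat left out, the difference ranged from -1.22 to -0.47 for Nr4a2, -0.26 to -0.09 for Pitx3, -0.44 to -0.12 for Foxa2 and -0.04 to 0.18 for Foxa1, which turned below 0 without rotenone rat 9. On the authors' scaled intensity the difference of Foxa1 was 0.78, against 0.10 as reported; the cause was not tested. The list medians ranged from -0.01 to 0.26 for the other transcription factors and signals, from -0.12 to 0.051 for the dopamine phenotype genes and from 0.04 to 0.17 for the immediate early genes. The count of called probes was 0 in limma under the 10 other ways of processing (183 to 1582 at an unadjusted p below 0.05) and 0 to 3 with a rat left out, the 3 arising without solvent rat 1; none of the factors was among them. No factor was above background on all 6 arrays, and Nr4a2 could not be fitted with marked spots left out, as its 3 solvent spots carry the irregular mark. The header date sets solvent rat 7 alone against the other 5 arrays, so its block gave nearly the values found without that rat. The median difference of all probes was 0.01 with quantile normalization and -0.06 with median scaling. No paired analysis was possible because the groups share no replicate numbers. Depth is limited by signal over background: Pitx3, Foxa2 and Foxa1 lay near it.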
